A study of Mus musculus with 3 samples.

Results

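The cytosolic ribosomal protein genes were examined in single B cells from mouse spleen, across B cell states and across the treatments R848 and IL-4+R848. They were chosen by symbol: names starting with Rps or Rpl and a digit, and Rpsa, Rplp0, Rplp1, Rplp2 and Fau, without pseudogenes and S6 kinases. Of 32285 genes, 87 matched, and 84 of these had at least 1000 UMIs (unique molecular identifiers, each counting 1 captured RNA molecule) over the 3 libraries. By role the 84 were 43 large subunit proteins, 3 proteins of the large subunit stalk, 32 small subunit proteins, 4 paralogs of another gene in the set (Rps27l, Rps27rt, Rpl36al and Rpl22l1) and 2 genes that share the name pattern but encode no structural ribosomal protein (Rpl7l1 and Rps19bp1). The members nearest above the limit were Rps19bp1 with 10096 UMIs and Rpl7l1 with 12762, and below it were Rpl39l with 99, Rpl3l with 30 and Rpl10l with 3. The 84 genes lie on 20 chromosomes, 4 of them on X, and all are in the mm10 gene annotation.

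All cells came from female wild-type mice of the BXD2 strain, an inbred line prone to autoimmune disease resembling lupus, and their age was not given in the sources used here. Every mouse was injected with R848, a synthetic compound that activates TLR7, at 40 µg for each 20 g it weighed. The R848 group had received 25 µg of an anti-IL-4 antibody 2 hours earlier, and the IL-4+R848 group 5 µg of IL-4 held in a long-acting complex with 25 µg of that antibody. Both doses were given again after 2 days, and splenic B cells were taken 2 days later by negative selection from 3 mice per treatment. Cells of both treatments were labelled with hashtag antibodies and pooled into 3 libraries, called sets 1 to 3, and each cell's treatment was read from its hashtag.

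A ribosome joins a small and a large subunit, each made of ribosomal RNA and a set of proteins needed in about equal amounts. Most of the messenger RNAs for these proteins start with a run of pyrimidines, the 5′ terminal oligopyrimidine (TOP) motif, through which mTOR signalling controls their translation as a group. When B cells are activated, Myc raises ribosome production, and plasmablasts then direct most of their translation to immunoglobulin.

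Promoter sequences were available for 64 of the 84 genes, and 38 of these (59.4%) had a run of at least 7 C or T letters on the gene's own strand within 20 bases of an annotated start. The same was true of 7392 of 26961 other genes (27.4%) and of 17 of 69 mitochondrial ribosomal protein genes (24.6%), which serve another ribosome. The windows below belong to genes on which the results turn, from RefSeq on GRCm38.p6, 5′ to 3′ on the gene's strand. Capitals mark the run. A window without capitals has no such run and is centred on the start.
Fau, chr19:6057937-6057966, plus strand: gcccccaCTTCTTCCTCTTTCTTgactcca
Rplp0, chr5:115559457-115559486, plus strand: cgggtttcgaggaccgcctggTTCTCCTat
Rps6, chr4:86857349-86857378, minus strand: ggaagtcgggCCTCTTTTTCgtgacgcctc
Rps24, chr14:24490664-24490693, plus strand: ccgcgctggggTCCTTCCTTgcgcgttgat
Rps27, chr3:90213632-90213661, minus strand: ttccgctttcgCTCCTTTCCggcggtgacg
Rps27l, chr9:66946066-66946095, plus strand: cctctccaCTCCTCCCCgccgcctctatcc
Rpl22l1, chr3:28805498-28805527, plus strand: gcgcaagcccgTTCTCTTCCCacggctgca
Rpl36al, chr12:69184053-69184082, minus strand: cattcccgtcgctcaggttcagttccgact
Rpl36a, chrX:134585639-134585668, plus strand: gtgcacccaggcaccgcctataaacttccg
Rpl10, chrX:74270801-74270830, plus strand: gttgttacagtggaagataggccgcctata
Rpsa, chr9:120127751-120127780, plus strand: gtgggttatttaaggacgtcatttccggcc
The paralogs Rps27 and Rps27l both have a run at the starts shown, and Rps27l has none at another annotated start (chr9:66946398-66946427), while Rpl36a and Rpl36al both lack one.

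The sets held 14519, 11389 and 14222 barcodes with 107244246, 96866964 and 99522280 gene UMIs. The cells kept numbered 7160, 5648 and 7538 with R848 and 5128, 4580 and 5084 with IL-4+R848, and any 2 sets shared 219 to 289 barcode sequences. Clusters were named from marker genes. In the follicular-like class none of the 8 follicular markers was at 0, and the summed T cell markers reached at most 2.19 CPM (UMIs scaled to a fixed library total, the unit used for levels here). The class joined clusters 0, 3, 4 and 14, where 5, 1, 1 and 1 of these 8 markers were raised over the other cells. Cluster 1, with 4 of the 8 raised, was left out, so the follicular-like name rests on few markers. The Zbtb32 cluster is called by a leading gene because its markers were split between age-associated and B-1 lists. The transitional-like class was cluster 2, with 4 of 7 transitional markers raised and Akap12 alone of them among its leading genes. Cluster 12, led by Sox4 and Rag1 and left unnamed, had 6 of the 7 raised, so the transitional-like name is tentative. The labels do not say whether a set is 1 mouse of each treatment, so p-values measure the spread between sets, which may be technical.

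Ribosomal protein RNA made up a large part of the RNA in follicular-like B cells and a small part in plasmablast-like cells. With R848 alone it took 38.3 ± 0.983% of the gene UMIs of follicular-like cells, the main circulating mature B cell (mean ± SD, n = 3 sets), with 37.4, 38.1 and 39.3% in sets 1 to 3. Marginal zone-like cells, which guard the blood side of the spleen, had 39.7 ± 1.14% and activated-like cells 36.4 ± 0.671%. The Zbtb32 cluster was at 32.3 ± 0.632%, germinal center-like cells at 26.5 ± 1.01% and transitional-like cells, the recent arrivals from bone marrow, at 26.1 ± 0.427%. Plasmablast-like cells, which secrete antibody, were at 11.6 ± 0.396%. They were cluster 5, with 9 of 9 plasmablast or plasma cell markers and 0 of 8 cycling markers raised. By these markers they were not dividing, and the name does not separate plasmablasts from plasma cells. Immunoglobulin RNA took 45.5 ± 1.77% of plasmablast-like UMIs, and without it the ribosomal protein share there was 21.4 ± 0.369%, against 39.0 ± 0.977% in follicular-like cells. The lowest follicular-like set lay above the highest transitional-like, germinal center-like and plasmablast-like sets. The follicular-like and marginal zone-like sets overlapped, although within each set marginal zone-like cells were higher, by 0.961 to 1.64 points.

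A lower share did not always go with fewer ribosomal protein molecules. Germinal center-like cells held 4209 ± 314 ribosomal protein UMIs per cell of 15905 ± 1026 in all, against 1689 ± 282 of 4420 ± 772 in follicular-like cells. Plasmablast-like cells held 1989 ± 182 of 17076 ± 1162, and transitional-like cells 794 ± 117 of 3047 ± 484. The germinal center-like count was thus above, and the transitional-like count below, that of follicular-like cells in every set.

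**Figure D1:**
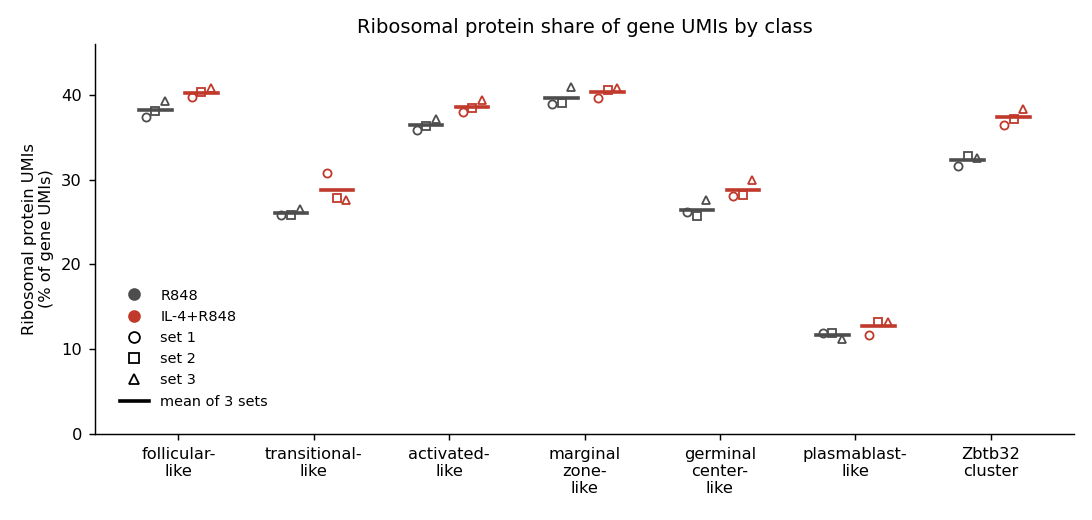
Ribosomal protein UMIs as a percentage of all gene UMIs (vertical axis) in 7 classes of cells (horizontal axis). Each symbol is 1 set, grey for R848 and red for IL-4+R848, and the bar is the mean of 3 sets. Follicular-like cells sit at 38.3% and 40.3% and plasmablast-like cells at 11.6% and 12.7%.

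The treatments compare R848 after the complex of IL-4 and anti-IL-4 antibody with R848 after that antibody alone. The reference is thus not R848 by itself, and "with IL-4" stands for this contrast throughout. In follicular-like cells, ribosomal protein genes were higher with IL-4+R848 and the increase was small and broad. In edgeR's test, 44 of the 84 rose and none fell, at a Benjamini-Hochberg adjusted p under 0.05, while 8.75% of the 10597 genes tested rose and 8.08% fell. The unadjusted p was under 0.05 for 70 higher and 0 lower genes, and DESeq2 called 40 higher and 0 lower. The fitted change was above 0 for 83 of the 84, with a median log2 fold change of 0.17, against -0.00 for all genes. The share of gene UMIs went from 38.3 ± 0.983% to 40.3 ± 0.540%, a gain of 1.44 to 2.32 percentage points in each set. With the set as a block, which pairs the treatments of 1 library, 79 rose and 1 fell, where 11.6% of genes rose and 10.2% fell. Without set 1 the count was 24 and without set 2 it was 6.

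The stalk that recruits translation factors rose as a whole. Rplp0, its base, was at 7552, 7462 and 7837 CPM in the 3 R848 sums and at 9500, 9292 and 9438 with IL-4+R848. Its log2 fold change was 0.31 ± 0.04 (± SE, edgeR adjusted p = 0.000443). The sums of the treatments did not overlap, nor did those of the other stalk proteins, Rplp1 at 0.25 ± 0.05 (adjusted p = 0.00624) and Rplp2 at 0.20 ± 0.05 (adjusted p = 0.0292).

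Among the other large subunit proteins 22 of 43 rose, with the largest change in Rpl3, which lines the peptidyl transferase centre. Rpl3 went from 2980, 2970 and 3007 to 3873, 3793 and 3873 CPM, a log2 fold change of 0.37 ± 0.04 (adjusted p = 0.000125). Rpl23a, at the exit of the peptide tunnel, rose by 0.31 ± 0.09 (adjusted p = 0.0378). Rpl5 and Rpl11, which join the ribosome together with a small ribosomal RNA, rose by 0.26 ± 0.08 and 0.15 ± 0.05. Rpl13a rose by 0.23 ± 0.06. Rpl7l1, a nucleolar protein that resembles Rpl7, rose by 0.31 ± 0.07 from 34.5, 34.6 and 37.6 to 46.9, 43.2 and 42.0 CPM.

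In the small subunit 17 of 32 rose. Rps12 rose by 0.31 ± 0.06, from 3038, 3421 and 3196 to 3722, 4236 and 4042 CPM. Rps6, the substrate of S6 kinase, rose by 0.27 ± 0.05 and Rpsa, also known as the laminin receptor, by 0.21 ± 0.04. Rps19, mutated in Diamond-Blackfan anaemia, rose by 0.21 ± 0.04 and Rps27a, made as a fusion with ubiquitin, by 0.17 ± 0.05. Rps14, at the decoding side of the subunit, had 0.15 ± 0.05 and missed the threshold (adjusted p = 0.0599), and with the set as a block it rose (0.16, adjusted p = 0.000791).

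Some members did not pass the test. Fau, a small subunit protein made as a fusion with a ubiquitin-like protein, was at 11549, 11520 and 12617 CPM with R848 and at 12045, 12283 and 12844 with IL-4+R848, at 0.06 ± 0.05 (adjusted p = 0.482), and the treatments overlapped. Fau passed with the set as a block, at 0.06 (edgeR adjusted p = 0.0349). Rps27 had 0.03 ± 0.06 (adjusted p = 0.835), and did not pass with the block either (adjusted p = 0.424). Rpl22l1, the paralog of Rpl22, was the only member with a negative fitted change in this comparison, at -0.11 ± 0.07 (adjusted p = 0.335).

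When each sum was scaled to its ribosomal protein total, so that only changes within the family count, 4 genes were higher and 4 lower. Rpl3, Rplp0, Rps20 and Rpl29 were the higher genes, at 0.19, 0.13, 0.11 and 0.10. Rpl22l1, Rps27, Fau and Rps9 were the lower ones, at -0.28, -0.15, -0.11 and -0.10. All 8 were past an adjusted p of 0.05 in edgeR. On that scale Rpl11 and Rps27a, which rose on the usual scale, had -0.02 and -0.00.

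**Figure D2:**
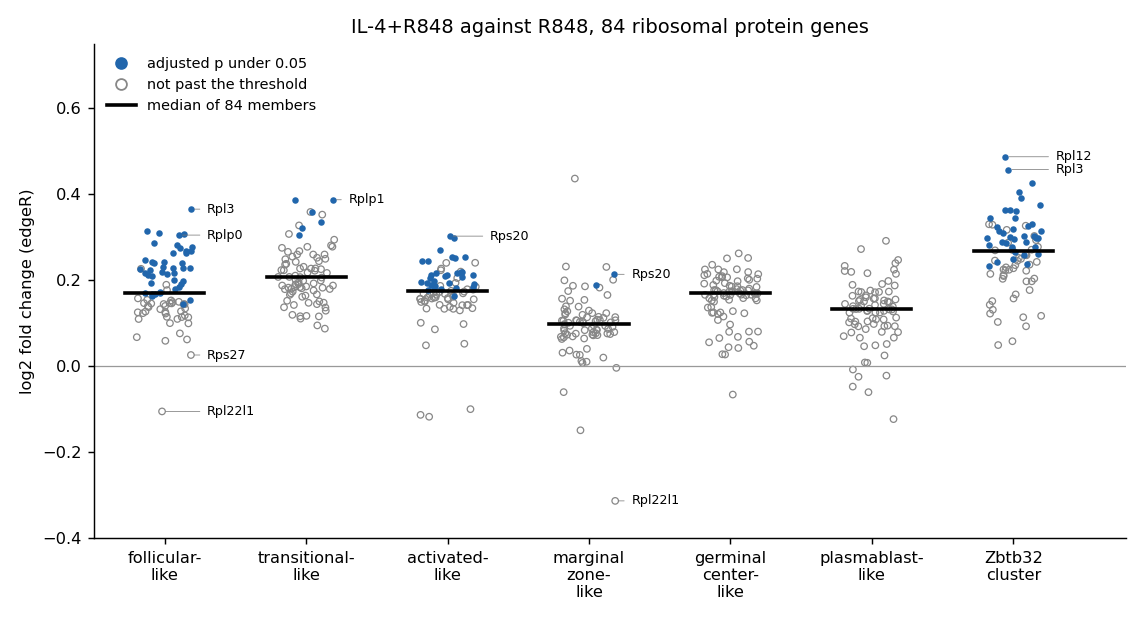
Log2 fold change of IL-4+R848 against R848 (vertical axis) for the 84 genes in each class (horizontal axis). Each point is 1 gene, filled where its edgeR adjusted p is under 0.05, and the bar is the median. The median is above 0 in every class, from 0.10 in marginal zone-like cells to 0.27 in the Zbtb32 cluster.

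The number of UMIs per cell, called depth here, moved with this increase. Inside follicular-like cells of each set and treatment, cells with more UMIs had a larger ribosomal protein share, for example 32.9, 36.4, 38.0 and 39.5% from the shallowest to the deepest of 4 equal groups of R848 cells in set 1. The one exception was set 2 with IL-4+R848, where the deepest group, at 41.87%, lay just under the one before it, at 41.91%. Median UMIs per follicular-like cell were 3968, 4991 and 3560 with R848 and 5561, 6943 and 4914 with IL-4+R848, so the IL-4 cells were deeper in every set. With each cell thinned at random to 2000 UMIs, the share was 37.6 ± 1.05% with R848 and 39.7 ± 0.460% with IL-4+R848. Thinning equalises the UMIs counted per cell, but it does not match cells that began at the same depth, as a window of depth does. Among follicular-like cells of 4000 to 6000 UMIs, the share was 38.8 ± 1.74% with R848 and 39.2 ± 1.65% with IL-4+R848, and the mean difference was 0.424 points. The IL-4 cells were still the deeper ones inside that window, with median UMIs of 5126, 5184 and 4957 against 4723, 4876 and 4671. Among follicular-like cells of 2000 to 4000 UMIs the difference turned to -0.318 points, with 35.0, 33.8 and 37.6% with R848 and 35.5, 33.0 and 37.1% with IL-4+R848, so that the share was higher with IL-4 in set 1 and lower in sets 2 and 3. In the cells of 4000 to 6000 UMIs edgeR called 0 of the 84, with 4.29% of genes called higher, 3 members at an unadjusted p under 0.05, and a median log2 fold change of 0.05. With the set as a block, 28 rose and 1 fell there, where 6.3% of genes rose and 5.87% fell. DESeq2 was not run on those cells. Rpl3 had 0.21 (adjusted p = 0.187 without the block). Rpl22l1, the lower gene with the block, had -0.22 (adjusted p = 0.0043).

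**Figure D3:**
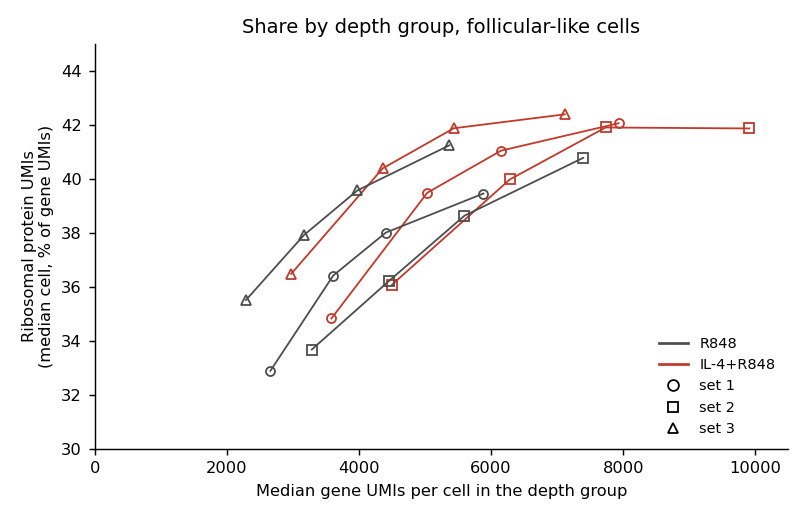
Ribosomal protein share of the median follicular-like cell (vertical axis, % of gene UMIs, starting at 30) against the median gene UMIs of each of 4 depth groups (horizontal axis). Lines join the groups of 1 set and treatment, grey for R848 and red for IL-4+R848. In set 1 the R848 line climbs from 32.9% to 39.5% and the IL-4+R848 line lies farther to the right.

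Marker levels in follicular-like cells also differed between treatments. The 8 follicular markers summed to 3857 to 4633 CPM with R848 and 2735 to 2911 with IL-4+R848, and the 9 early activation markers to 1216 to 2008 and 574 to 796. Cluster 4, within the class, was nearly all IL-4+R848 cells (977, 1026 and 1212 against 42, 31 and 43), and without it 78 members rose, with a median of 0.34. The share of all genes that rose in that fit is not given here. The part of the marker differences in the result was not tested.

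In the Zbtb32 cluster the family was also higher with IL-4+R848. Its share went from 32.3 ± 0.632% to 37.4 ± 0.956%, with a gain of 4.45 to 5.87 points in each set. In edgeR's test 38 of the 84 rose and 0 fell, where 1.67% of the 8663 genes tested rose and 1.04% fell, 75 were higher and 0 lower at an unadjusted p under 0.05, and DESeq2 called 38 higher and 0 lower. All 84 had a positive fitted change, with a median of 0.27.

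The genes that rose most there belong to both subunits. Rpl12, at the base of the stalk, went from 1429, 1533 and 1341 to 1900, 2143 and 1990 CPM, a log2 fold change of 0.49 ± 0.07 (adjusted p = 0.00616). Rpl3 rose by 0.46 ± 0.05, from 2936, 2775 and 2733 to 3747, 3904 and 3942 CPM. Rpsa rose by 0.43 ± 0.05, Rpl32 by 0.40 ± 0.05 and Rps7 by 0.39 ± 0.05, each with no overlap between treatments.

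The Zbtb32 difference was also present in a narrower range of depth, where the IL-4 cells were still deeper, with median UMIs of 5184, 5329 and 5107 against 4894, 5013 and 4835. Among cells of 4000 to 6000 UMIs the share was 32.5, 32.7 and 33.4% with R848 and 36.2, 35.8 and 38.7% with IL-4+R848, a mean difference of 4.04 points, and the median log2 fold change was 0.23. That window held only 21 IL-4+R848 cells of set 2, fewer than the 50 required elsewhere, and 4 members rose in it, where 0.522% of genes did. With all depths and the set as a block 65 rose (2.02% of genes). Without set 1, 2 or 3 the count was 26, 0 or 9.

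In activated-like cells, marked by early response and ribosome production genes, 31 of the 84 rose and 0 fell, where 2.1% of the 9090 genes tested rose and 0.902% fell. The unadjusted p was under 0.05 for 72 higher and 0 lower genes, and DESeq2 called 5 higher and 0 lower. Rps20, a small subunit protein, went from 9750, 9715 and 10048 to 11753, 12039 and 12610 CPM, a log2 fold change of 0.30 ± 0.04 (adjusted p = 0.001). Rplp0 rose by 0.30 ± 0.04, Rpl3 by 0.27 ± 0.05 and Rpl28 by 0.25 ± 0.05. With the set as a block 72 rose and 0 fell (2.99% and 1.22% of genes), without set 1 the count was 2 and without set 2 it was 1. Among activated-like cells of 4000 to 6000 UMIs 0 members were called, with or without the block, where 0.628% of genes rose without it. The median was 0.05 and the difference in share 0.393 points there, against 2.19 points in all activated-like cells.

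In the remaining classes the members leaned upward and few or none passed the test. In transitional-like cells 6 of 84 rose and 0 fell, where 2.01% of 8708 genes rose and 1.92% fell. They were Rplp1 at 0.39 ± 0.07, Rps2, which lies near the RNA entry channel, at 0.39 ± 0.09, Rps12, Rps20, Rpl36al and Rpl36a. Rplp1 went from 2315, 2388 and 2367 to 3278, 3048 and 2922 CPM, so the treatments did not overlap. With the set as a block 9 rose, where 2.57% of genes rose and 2.42% fell. The count was 3 without set 1, 0 without set 2 and 1 without set 3. The transitional-like share was 2.67 points higher with IL-4+R848 over all cells. Among cells of 2000 to 4000 UMIs it was 24.2, 24.0 and 25.8% with R848 and 26.5, 25.0 and 26.6% with IL-4+R848, a mean difference of 1.35 points. The treatments overlapped there, although within each set the share was higher with IL-4+R848. In marginal zone-like cells Rps20 and Rps19 rose, where 1.75% of 8930 genes rose and 1.16% fell, by 0.21 ± 0.04 and 0.19 ± 0.05. There DESeq2 called none, and with the set as a block 17 rose (2.02% of genes) and Rpl22l1 fell (1.11% of genes). Without set 1, 2 or 3, 0, 0 or 8 members rose.

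In germinal center-like cells edgeR and DESeq2 called 0 members, where 0.287% of 9755 genes rose and 0.113% fell, although 83 of 84 were above 0 and the median was 0.17. The unadjusted edgeR p was under 0.05 for 31 higher and 0 lower genes. With the set as a block 41 rose, where 1.09% of genes rose. In plasmablast-like cells neither tool called a member, and edgeR called 0% of 9730 genes. No member there had an unadjusted edgeR p under 0.05, and in DESeq2 9 did, all higher. The median was 0.13, and with the block the count of members was again 0, where 0.00997% of genes rose and 0.0199% fell.

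The difference of each class's IL-4 effect from that of follicular-like cells was tested as an interaction. No member passed in the transitional-like, activated-like, marginal zone-like or germinal center-like classes or the Zbtb32 cluster. Over 10545 genes, 0.19, 0.0759, 0.673, 2.34 and 0.019% had a higher effect in these 5 and 0.294, 0.474, 1.01, 3.33 and 0.398% a lower one. At an unadjusted p under 0.05, these had 1, 0, 0, 0 and 9 members higher and 0, 1, 12, 6 and 1 lower, and no second tool was run on them. In plasmablast-like cells 3 had a lower IL-4 effect, and none a higher one, where 1.85% of genes had a lower and 1.24% a higher effect. They were Rpl10, a subunit joining protein encoded on X, at -0.30 ± 0.07 (adjusted p = 0.0112), Rpl41, a very short large subunit protein, at -0.28 ± 0.07 (adjusted p = 0.0187), and Rpl36al at -0.30 ± 0.08 (adjusted p = 0.0202). Leaving out any 1 set left 0 of these lower calls.

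With R848 alone, 81 of the 84 were lower in transitional-like than in follicular-like cells and none higher in edgeR or DESeq2, where 14% of the 10868 genes tested were lower and 12% higher. None had an unadjusted p under 0.05 in the higher direction. The median log2 fold change was -0.85. All 78 structural members fell, and the exceptions were Rpl7l1 at 0.11, Rps19bp1 at -0.12 and Rps27l at -0.14.

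Transitional-like cells were lower in both subunits alike, with medians of -0.87 over 46 large and -0.84 over 32 small subunit proteins. Rpsa was at 7386, 7526 and 7764 CPM in follicular-like and at 3336, 3308 and 3442 in transitional-like sums, a log2 fold change of -1.17 ± 0.03 (adjusted p = 2.83e-13). Rplp0 fell by 1.14 ± 0.03, from 7615, 7480 and 7884 to 3555, 3363 and 3503 CPM. Rpl37a fell by 1.14 ± 0.04 and Rps2 by 1.11 ± 0.04. Transitional-like cells were shallower, and among cells of 2000 to 4000 UMIs in both classes 81 members were again lower, with a median of -0.74 and a share 10.8 points lower. The share of all genes that were lower in that fit is not given here.

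Germinal center-like cells, where B cells divide and mutate their receptors, had 73 members lower and 6 higher, where 35.6% of genes were lower and 37% higher. The median was -0.65, and medians were -0.67 for large and -0.68 for small subunit proteins. The family spread out in these cells, from -1.49 to 1.64. Rps24, a small subunit protein, fell by 1.49 ± 0.03, from 12593, 12698 and 13986 to 4503, 4415 and 5112 CPM (adjusted p = 9.56e-16). Rps27 fell by 1.40 ± 0.04, its retrocopy Rps27rt by 1.48 ± 0.08, Fau by 1.13 ± 0.03 and the X-linked Rps4x by 1.08 ± 0.04.

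Some germinal center-like increases stood against that trend. Rps27l, a paralog of Rps27, went from 85.2, 85.6 and 95.0 to 243, 253 and 345 CPM, a log2 fold change of 1.64 ± 0.09 (adjusted p = 1.51e-11). Rpl7l1 rose by 0.66 ± 0.06, Rps19bp1, a binding partner of Rps19, by 0.57 ± 0.09, Rpl23a by 0.21 ± 0.06 and Rps6 by 0.20 ± 0.05. Rpl5 (0.08 ± 0.06) and Rpl22l1 (-0.11 ± 0.06) did not pass. Cycling markers moved with this state, at a sum of 2847 to 3411 CPM against 22.6 to 53.3 in follicular-like cells, and their part was not tested. Scaled to the ribosomal protein total, which centres the family by construction, 42 members were higher and 29 lower. With IL-4+R848 sums Rpl23a had -0.05 in place of its rise.

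Plasmablast-like cells had 75 members lower and 6 higher, where 34.8% of genes were lower and 36.8% higher, and the median was -0.78. The largest fall was in Rpsa, from 7386, 7526 and 7764 to 2713, 2573 and 2639 CPM, by 1.52 ± 0.03 (adjusted p = 1.15e-16). Fau fell by 1.44 ± 0.03, from 11646, 11548 and 12692 to 4468, 4211 and 4534 CPM. Rps27 fell by 1.40 ± 0.04, Rpl30 by 1.34 ± 0.04 and Rpl9 by 1.32 ± 0.03, and no follicular-like sum overlapped a plasmablast-like one for any of these 5.

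The 6 genes that rose in plasmablast-like cells included members of 2 paralog pairs. Rps27l went from 85.2, 85.6 and 95.0 to 590, 626 and 843 CPM, a log2 fold change of 2.94 ± 0.09 (adjusted p = 6.54e-15). Rpl36al, a copy of the X-linked Rpl36a, went from 971, 989 and 1044 to 2844, 2715 and 3123 CPM, at 1.53 ± 0.04 (adjusted p = 1.52e-15), while Rpl36a fell by 1.07 ± 0.05. Rpl10 rose by 0.60 ± 0.05, from 2593, 2863 and 3040 to 4285, 4056 and 4551 CPM, and Rpl41 by 0.50 ± 0.04. Rps19bp1 and Rpl7l1 rose by 0.38 ± 0.10 and 0.28.

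The members of known single roles ranged widely in plasmablast-like cells, from -0.07 for Rplp0 to -1.52 for Rpsa. The falls of Rpsa and Fau, which are among them, are given above. Rplp0 was at 7615, 7480 and 7884 against 7686, 6875 and 7327 CPM, with -0.07 ± 0.03 (adjusted p = 0.069) and overlapping sums. Rplp2 fell by 0.19 ± 0.04, Rps6 by 0.17 ± 0.05, Rps14 by 0.27 ± 0.04 and Rps27a by 0.36 ± 0.04. Rplp1 fell by 0.64 ± 0.05, Rpl5 by 0.48 ± 0.06, Rpl13a by 0.56 ± 0.04, Rpl11 by 0.84 ± 0.04 and Rps19 by 1.18 ± 0.04. Scaled to the ribosomal protein total, which centres the family by construction, 35 members were higher and 35 lower.

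Across the 78 structural members, those with higher follicular-like levels tended to have the more negative fold change, with a Spearman rho of -0.57 in plasmablast-like, -0.58 in germinal center-like and -0.33 in transitional-like cells. These genes share libraries, and the follicular-like level enters both measures, so the values are a description.

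**Figure D4:**
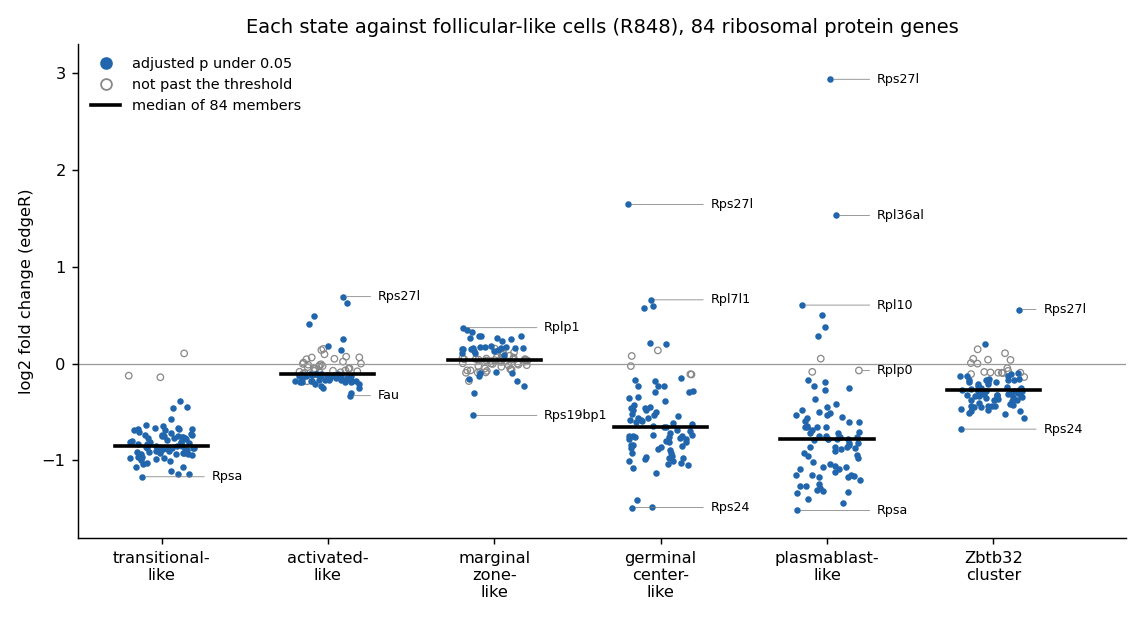
Log2 fold change of each class against follicular-like cells with R848 (vertical axis) for the 84 genes in 6 classes (horizontal axis). Each point is 1 gene, filled where its edgeR adjusted p is under 0.05, and the bar is the median. The plasmablast-like points have a median of -0.78 and quartiles of -1.07 and -0.53, while Rps27l stands at 2.94 and Rpl36al at 1.53.

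The other states lay closer to follicular-like cells. In activated-like cells 45 members were lower and 7 higher, where 17% of genes were lower and 19.4% higher, with a median of -0.11. Fau fell by 0.33 ± 0.03, Rps27 by 0.30 ± 0.04, Rps24 by 0.26 ± 0.03 and Rps9 by 0.24 ± 0.03. The rises included Rps27l at 0.69 ± 0.09, from 85.2, 85.6 and 95.0 to 121, 146 and 166 CPM, Rps19bp1 at 0.63 ± 0.10, Rpl7l1 at 0.49 ± 0.07 and Rpl22l1 at 0.25 ± 0.06. The class joins clusters 7 and 10, which differed in these genes. With R848, and with immunoglobulin left out of the total, Rps27l was at 180 ± 14.4 CPM in cluster 7 and 91.2 ± 11.5 in cluster 10, and Fau at 9531 ± 388 and 12198 ± 320. The clusters were not tested apart. In IL-4+R848 cells the same contrast gave 3 higher and 3 lower. Without set 1, 2 or 3, between 23 and 25 members were lower and 4 to 5 higher.

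In marginal zone-like cells 27 members were higher and 9 lower, where 14.8% of genes were higher and 13.8% lower, with a median of 0.04. The stalk rose as a whole, with Rplp1 at 0.37 ± 0.05, from 3189, 3476 and 3364 to 4301, 4299 and 4360 CPM. Rps6 rose by 0.34 ± 0.05, Rps12 by 0.33 ± 0.06, Rpl23a by 0.29 ± 0.06 and Rpl22l1 by 0.28 ± 0.06. Rps19bp1 fell by 0.53 ± 0.12, Fau by 0.30 ± 0.03, Rps24 by 0.23 ± 0.03, Rps27 by 0.18 ± 0.04 and Rpl35a by 0.16 ± 0.04. Without set 1, 2 or 3, 10 to 16 members were higher and 4 to 6 lower, and IL-4+R848 cells gave 0 higher and 1 lower.

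In the Zbtb32 cluster 65 members were lower and 2 higher, where 12.5% of genes were lower and 15% higher, with a median of -0.28. Rps24 fell by 0.68 ± 0.03, from 12593, 12698 and 13986 to 7833, 8358 and 8347 CPM. Rpl9 fell by 0.56 ± 0.03, Fau by 0.52 ± 0.03, Rps4x by 0.51 ± 0.04 and Rps15a by 0.49 ± 0.04. Rps27l rose by 0.56 ± 0.09. With IL-4+R848 sums 22 members were lower and 1 higher.

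The paralogs were also compared as a share of the UMIs of their pair, which does not depend on the scaling of the library. Rps27l made up 1.71 ± 0.0487% of the Rps27 and Rps27l molecules of R848-treated follicular-like cells, with 1.68, 1.77 and 1.69% in sets 1 to 3. It was 12.6 ± 1.48% in germinal center-like and 26.1 ± 2.94% in plasmablast-like cells, with 11.2, 12.5 and 14.2% and 23.2, 26.2 and 29.1% in the sets. The 3 classes did not overlap. Cycling-like cells had 8.62 ± 0.863%, and activated-like cells, the Zbtb32 cluster, transitional-like and marginal zone-like cells between 2.02% and 3.37%. Rps27rt, in contrast, had 1.89 to 2.16% of its pair with Rps27 in the 8 classes of B cells with R848. Rps27 and Rps27rt, and Rpl36a and Rpl36al, are close copies, so reads could be split or lost between them and these levels are uncertain.

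Rpl36al made up 34.0 ± 0.596% of its pair with Rpl36a in follicular-like cells and 75.8 ± 0.816% in plasmablast-like cells with R848. Germinal center-like and transitional-like cells were at 44.0 ± 0.745% and 44.2 ± 0.513%, and their ranges overlapped. Marginal zone-like cells were lowest of the 8 classes at 30.8 ± 0.468%. With IL-4+R848 the share moved up in follicular-like cells, to 36.0 ± 0.427%, in marginal zone-like cells, to 33.8 ± 0.953%, in activated-like cells, from 35.1 ± 0.173% to 35.9 ± 0.204%, and in cycling-like cells, from 35.2 ± 1.64% to 37.9 ± 0.820%, and down in the Zbtb32 cluster, from 41.8 ± 1.28% to 37.5 ± 0.343%, each with no overlap between treatments. A cluster of cycling cells that also held plasmablast markers, left out of the classes, had 725 ± 87.0 Rps27l and 2586 ± 53.5 Rpl36al CPM with immunoglobulin left out of the total. Cells of the plasmablast-like cluster were at 680 ± 112 and 2875 ± 95.8 on that scale, and the cycling-like cluster at 240 ± 24.5 and 919 ± 62.9.

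The balance of Rpl22 and its paralog Rpl22l1 moved with IL-4. Rpl22 binds RNA as well as being part of the large subunit. In follicular-like cells the Rpl22l1 share went from 27.9, 27.3 and 27.9% with R848 to 22.8, 22.6 and 24.1% with IL-4+R848, with means of 27.7 ± 0.391% and 23.2 ± 0.812%. It went from 30.2 ± 0.464% to 24.0 ± 1.52% in marginal zone-like cells and from 33.0 ± 1.42% to 28.5 ± 1.03% in activated-like cells. The treatments did not overlap in any of these 3 classes, nor in cycling-like cells (36.2 ± 0.692% to 32.9 ± 0.922%) or the Zbtb32 cluster (24.2 ± 1.19% to 21.3 ± 1.37%). Plasmablast-like cells were at 21.6% with either treatment, and germinal center-like and transitional-like sets overlapped. No p is given for these shares, since 3 sets against 3 cannot reach an exact two-sided permutation p below 0.10.

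**Figure D5:**
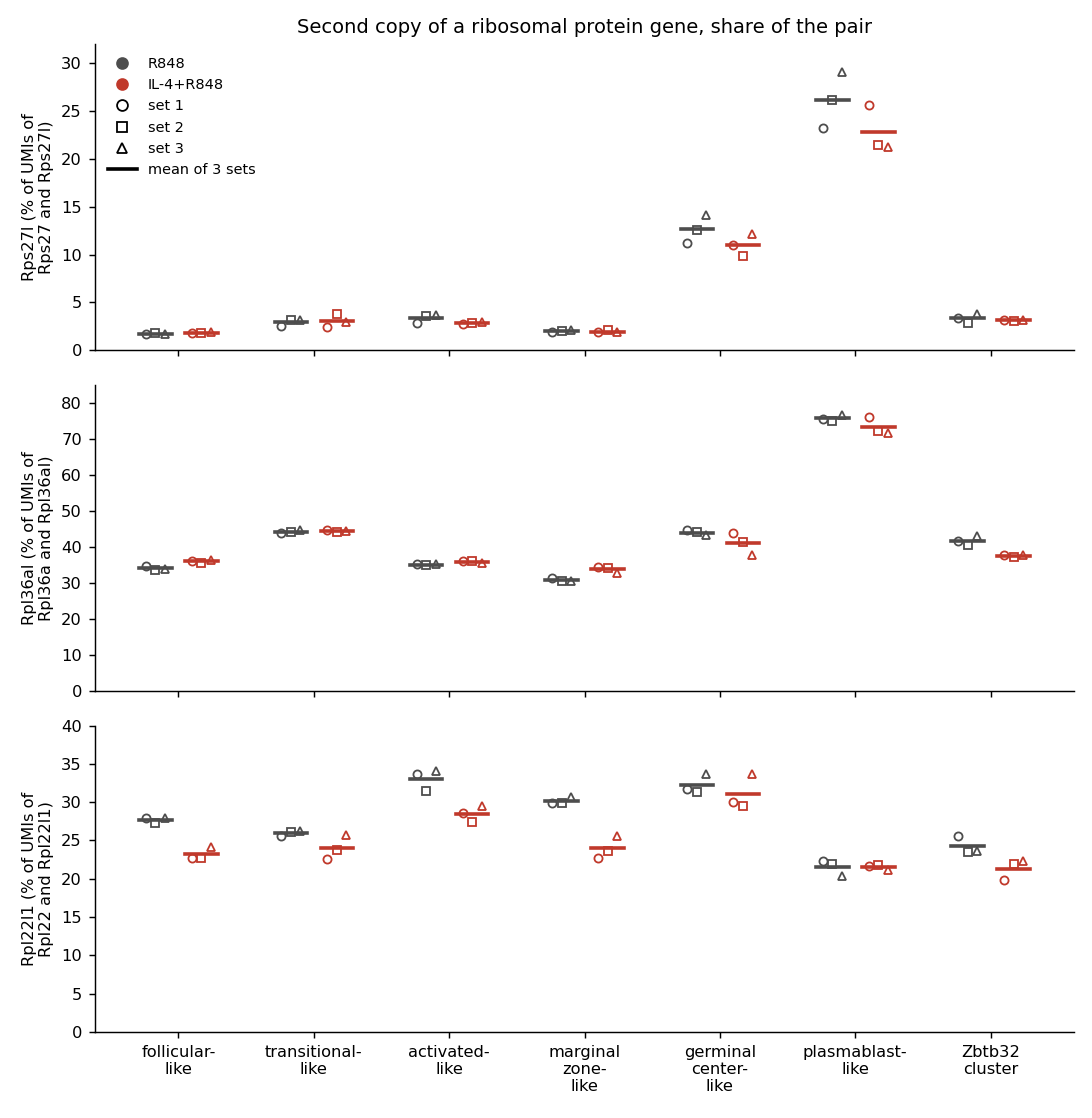
Share of a paralog in the UMIs of its pair (vertical axes, %) in 7 classes (horizontal axis), for Rps27l, Rpl36al and Rpl22l1 from top to bottom. Each symbol is 1 set, grey for R848 and red for IL-4+R848, and bars are means of 3 sets. Rps27l and Rpl36al peak in plasmablast-like cells at 26.1% and 75.8%, and Rpl22l1 is lower with IL-4+R848 in follicular-like cells, at 23.2% against 27.7%.

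Genes that serve the ribosome without being part of it moved differently. Of 30 ribosome biogenesis genes, which process ribosomal RNA or drive its synthesis, 19 rose and none fell with IL-4 in follicular-like cells, where 8.75% of genes rose, with a median log2 fold change of 0.41. Bysl (0.65 ± 0.19), Pes1 (0.55 ± 0.07) and Dkc1 (0.51 ± 0.07), all nucleolar processing factors, rose most. In the other 6 classes at most 1 of the 30 was called in either direction with IL-4. In the Zbtb32 cluster 1 was called, where 1.67% of genes rose, although 29 of the 30 had a positive fitted change and the median was 0.34. Transitional-like cells had 22 of the 30 positive (median 0.19) and plasmablast-like cells 21 (median 0.06). The lean was downward in activated-like cells, with 6 positive (median -0.13), germinal center-like cells, with 4 (median -0.12), and marginal zone-like cells, with 8 (median -0.07).

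Between states the biogenesis genes went against the ribosomal proteins in some classes. All 30 were higher in activated-like than in follicular-like cells, where 19.4% of genes were, with a median of 1.23. The activated-like class was itself marked by ribosome production genes, and Myc is on both the biogenesis and the early activation list. None of the 30 was used to form the clusters, while other ribosome production genes could be. That rise can thus still be partly built into the class, and how much of it is independent of the naming was not tested. In germinal center-like cells 28 were higher and 2 lower, where 37% of genes were higher and 35.6% lower, with a median of 0.96. Nop58 rose there by 1.89 ± 0.07, Ncl, nucleolin, by 1.57 ± 0.09 and Mrto4 by 1.52 ± 0.11, while Myc fell by 0.71 ± 0.13 and Ltv1 by 0.41 ± 0.09. In plasmablast-like cells 5 rose and 12 fell, Myc by 2.10 ± 0.14, where 36.8% of genes rose and 34.8% fell, so the share that fell was near that of all genes. In transitional-like cells 8 rose and 1, Myc, fell, where 12% of genes rose and 14% fell.

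Of 31 translation factors and other TOP or TOP-control genes, 7 rose with IL-4 in follicular-like cells and none fell, where 8.75% of genes rose and 8.08% fell. The initiation helicase Eif4a1 rose by 0.32 ± 0.06 and the elongation factor Eef1g by 0.29 ± 0.06. In transitional-like against follicular-like cells 21 fell and 2 rose, where 14% of genes fell and 12% rose, with the elongation factor subunit Eef1b2 at -0.96 ± 0.05. In plasmablast-like cells 21 fell and 7 rose, where 34.8% and 36.8% of genes did, with Nap1l1 at -1.59 ± 0.06 and Eif3f at -1.27 ± 0.05 among the falls and Mtor at 0.84 ± 0.16 among the rises. Germinal center-like cells had 13 lower and 11 higher, near the 35.6% and 37% of all genes.

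The 78 mitochondrial ribosomal proteins, whose ribosome translates the mitochondrial genome, did not follow the cytosolic ones between states. Germinal center-like cells had 71 higher and 3 lower, where 37% of genes were higher and 35.6% lower, with a median of 0.67. Plasmablast-like cells had 52 higher and 13 lower, where 36.8% were higher and 34.8% lower, with a median of 0.38. Mrpl57 rose in plasmablast-like cells by 2.78 ± 0.08, from 95.1, 89.7 and 83.0 to 601, 606 and 625 CPM. With IL-4 in follicular-like cells 8 of the 78 rose and none fell, and the share that rose was near the 8.75% of all genes. Mrps6 rose by 0.56 ± 0.10.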

How the data were processed

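The 3 pooled libraries of 10x 5′ single-cell RNA were analysed. The authors deposited raw UMI counts per gene, hashtag and antibody, made with Cell Ranger 6.0.1 on mm10, per the submitters' processing notes. The notes also name Seurat 4.1.3. The deposited barcode and feature tables name cells and genes. Treatment was assigned from the hashtag that reached 64 UMIs and exceeded the other by 4 times. Barcodes with both hashtags (1547, 935 and 1300) were left out as doublets, and no doublet caller was run, so doublets within 1 treatment stay in. Cells with fewer than 500 genes, or with 10% or more of mitochondrial UMIs, were removed.

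Cells were clustered with scanpy 1.11.5 and leidenalg 0.10.2 (2000 variable genes, 30 components, 15 neighbours, resolution 1) and named from markers. Cytosolic and mitochondrial ribosomal protein genes and the biogenesis and translation factor lists were kept out of the variable genes. Expression was centred within each set and treatment before clustering. Clusters 1, 12 and 15 stayed unnamed for their leading genes, and cluster 1 held 827, 494 and 1022 R848 and 690, 462 and 637 IL-4+R848 cells of sets 1 to 3. Clusters 13, 16, 17 and 19 were also left out of the classes. All unnamed clusters together held 3644 R848 and 3011 IL-4+R848 cells. The authors' own cell types were not used here, so class names are rebuilt.

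Sums of counts over the cells of 1 class, set and treatment (50 cells or more) were tested with edgeR 4.0.16 (quasi-likelihood, TMM, Benjamini-Hochberg over all genes, limit 0.05, SE from log2 fold change and F). Treatments were fitted without a block, and states and interactions with the set as a block. CPM values are edgeR's, with TMM scaling within each comparison, so levels are compared only inside one, except for interactions, whose levels are scaled over all classes. All 84 genes passed the low-count filter in every fit. Treatments of 1 set shared 1 library, which pairs them. Correlations of their deviations were 0.379, 0.261 and 0.326 in follicular-like cells and -0.0588, -0.0605 and -0.0332 in plasmablast-like cells. On simulated counts for the follicular-like comparison (10500 genes) 46.07% of genes changed by 0.5 and 93.52% of those changed by 1 (log2) were recovered, with 11 false calls. For the plasmablast-like comparison these were 34.29% and 84.62%, with 7 false calls. The simulation had 1 fixed dispersion, no set effect and changes larger than the members' follicular-like median of 0.17, so it does not give the power for the members.

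The members, gene lists, clustering and tests were chosen with earlier results of these data known. Named genes were up to 5 per direction with the largest called change moving alike in 3 sets, paralogs, members of known single roles, and up to 3 genes per other list. Eef1g, Nap1l1, Mtor, Ltv1, Rpl10 and Rpl41 where named outside that rule were chosen after their values were seen. Some members that the rule names are not reported here. Alternatives were DESeq2 1.42.0, no low-count filter, other scalings, cell filters, depth windows, cluster choices, a second seed and leaving out each set. Windows of depth, cluster choices and the second seed were added after seeing the data.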

Additional observations from a re-analysis of the deposited data

Results flagged for a closer look

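The IL-4 effect of 3 ribosomal protein genes differed between plasmablast-like and follicular-like cells in a test of the difference itself (edgeR interaction term, Benjamini-Hochberg over 10545 genes). Of all genes tested, 1.85% had a lower effect there and 1.24% a higher one, so 3 of 84 is not read as a result about the family. Rpl10 had a difference of -0.30 ± 0.07 on the log2 scale (adjusted p = 0.0112). Its level, scaled over all classes together, went from 4264, 4033 and 4534 to 3943, 3887 and 4294 CPM with IL-4+R848 in plasmablast-like cells, and from 2582, 2856 and 3029 to 3094, 3342 and 3440.5 CPM in follicular-like cells. Rpl41 had a difference of -0.28 ± 0.07 (adjusted p = 0.0187), with 10959.6, 9797 and 11973 CPM with R848 against 10547, 9514 and 11142 with IL-4+R848 in plasmablast-like cells, and 7404, 7563 and 8134 against 8572, 8751 and 9585 CPM in follicular-like cells. Rpl36al had a difference of -0.30 ± 0.08 (adjusted p = 0.0202), with 2831, 2699.9 and 3110.5 against 2957, 2603 and 2831 CPM in plasmablast-like cells, and 967, 987 and 1040.4 against 1167, 1192 and 1247 CPM in follicular-like cells. Without any 1 set, 0 members had a lower effect at that threshold.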

How the results depend on the processing

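When each set was left out, 81 members were lower in transitional-like, 70 to 75 in germinal center-like and 74 to 76 in plasmablast-like against follicular-like cells, while the counts with IL-4 moved with most settings. Of the values of single genes under the alternatives, 1102 kept direction and side of the threshold, 165 lost the call, 31 gained it and 33 changed sign. Except where a value below or the setting's own construction shows it, the cause was not tested. Shallow cells and small classes limit the rarer members, such as Rps19bp1 and Rpl7l1.

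Leaving out 1 set gave members higher with IL-4 of 6 to 53 in follicular-like, 0 to 3 in transitional-like, 1 to 24 in activated-like, 0 to 8 in marginal zone-like (0 to 1 lower) and 0 to 26 in Zbtb32 cluster cells. It gave 4 to 5 higher and 23 to 25 lower in activated-like, 10 to 16 higher and 4 to 6 lower in marginal zone-like, and 1 higher in Zbtb32 cluster against follicular-like cells. For the interaction in plasmablast-like cells it gave 0 to 1 higher and 0 lower. In shares, the IL-4 difference was 1.85 to 2.29 points in follicular-like, 2.19 to 2.20 in activated-like, 2.13 to 2.44 in germinal center-like and 4.69 to 5.40 in Zbtb32 cluster cells.

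With the set as a replicate block, members higher with IL-4 were 79 (1 lower) in follicular-like, 72 in activated-like, 17 (1 lower) in marginal zone-like, 41 in germinal center-like and 65 in Zbtb32 cluster cells. Without that block, the states gave 4 higher and 17 lower in activated-like, 11 higher and 3 lower in marginal zone-like and 1 higher in Zbtb32 cluster cells.

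DESeq2 gave 5 members higher with IL-4 in activated-like and 0 in marginal zone-like cells. No low-count filter gave 22 in transitional-like, 6 (1 lower) in marginal zone-like and 70 in Zbtb32 cluster cells, and against follicular-like cells 16 higher in marginal zone-like and 1 higher in Zbtb32 cluster cells. Leaving out immunoglobulin genes gave 10, 7 (1 lower) and 62 in those 3 IL-4 comparisons, an IL-4 share difference of 2.23 points in activated-like cells and -17.6 points for plasmablast-like minus follicular-like cells. Leaving out mitochondrial genes gave 2.23 points in activated-like cells. Thinning cells to 2000 UMIs gave 2.03 points there and -5.13 points for the Zbtb32 cluster minus follicular-like cells.

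Medians of single cells gave IL-4 share differences of 2.60 points in follicular-like, 2.54 in activated-like, 1.70 in germinal center-like and 4.33 in Zbtb32 cluster cells. For states minus follicular-like cells they gave -13.3 points in transitional-like, -1.35 in activated-like, 1.84 in marginal zone-like, -11.0 in germinal center-like and -4.54 in Zbtb32 cluster cells.

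Among cells of 4000 to 6000 UMIs, members higher with IL-4 were 0 in follicular-like (28 higher and 1 lower with the block), 0 in activated-like (0 with the block) and 4 in Zbtb32 cluster cells (5 with the block), and share differences were 0.424, 0.393 and 4.04 points. There Rps27 in follicular-like cells had -0.058 and with the block -0.059, and Rpl36a had -0.00167. Among cells of 2000 to 4000 UMIs the IL-4 share difference was -0.318 points in follicular-like cells, against its main direction, and 1.35 in transitional-like cells, and transitional-like minus follicular-like was -10.8 points.

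Follicular-like members higher with IL-4 were 74 among cells gated by the IgD antibody (with Rps27l at -0.13), 76 with cluster 1 and 78 without cluster 4. A second clustering seed gave 68 there, 58 in activated-like and 1 (1 lower) in marginal zone-like cells, and against follicular-like cells 27 lower in activated-like and 4 lower in marginal zone-like cells.

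In IL-4+R848 sums, the states gave 3 higher and 3 lower in activated-like, 0 higher and 1 lower in marginal zone-like and 1 higher and 22 lower in Zbtb32 cluster cells. In germinal center-like cells Rpl23a had -0.051, Rpl22l1 0.016 and Rpl5 -0.15.

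Scaling to the ribosomal protein total, which sets the family's sum equal by construction, gave 4 higher and 4 lower with IL-4 in follicular-like cells, with Rps27 at -0.15, Rps27l at -0.029, Rps27rt and Fau at -0.11, Rpl36a at -0.027, Rpl11 and Rps14 at -0.020 and Rps27a at -0.00402. It gave 42 higher and 29 lower in germinal center-like cells, with Rpl22 at 0.29, Rpl22l1 at 0.60, Rpl36al at 0.57, Rplp0 at 0.37, Rplp1 at 0.23, Rplp2 at 0.48, Rpl13a at 0.12, Rps27a at 0.43 and Rps14 at 0.090. It gave 35 higher and 35 lower in plasmablast-like cells, with Rpl22 at 0.11, Rplp0 at 0.72, Rplp1 at 0.15, Rplp2 at 0.60, Rps6 at 0.62, Rpl5 at 0.31, Rpl13a at 0.24, Rps27a at 0.43 and Rps14 at 0.52.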
